A study of Sus scrofa with 22 samples.

Results

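The sequences described here are miRNA reads that differ from the most read sequence of their miRNA at a single base of the seed, by any change other than A to G. They were taken from small RNA libraries of pig subcutaneous fat, in which each distinct read sequence had been counted and given a pig miRNA name. The leading sequence of a name was the row with the most reads over all 22 libraries. A row was taken when it had the length of that leading sequence and differed from it at exactly 1 position between 2 and 8, counted from 1 at the 5′ end. This gave 61 sequences of 39 miRNAs, among 8409 named sequences of 250 miRNAs. They held 16846 reads. The members were thus chosen by their sequence and, for the leading sequence and for being listed at all, by read counts summed over the libraries; no difference between groups of animals entered.

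A miRNA is a short RNA that a protein of the Argonaute family carries to messenger RNAs, where it lowers their translation and stability. Bases 2 to 8, the seed, pair with the target and largely decide which messengers are bound, so a changed seed base gives a different set of possible targets. A-to-G changes can be made in the cell by ADAR enzymes, which turn adenosine into inosine that is read as G. The other changes have no such widespread enzyme in animal miRNAs. They are commonly taken as a background of sequencing, reverse transcription and PCR errors against which edited reads are judged, although inherited variants and related genes can give them too.

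All 22 animals were female pigs 6 months old, with 1 library each. Pietrain contributed 4 libraries of fat labelled thick and 3 labelled thin, Large White 4 and 4, and Hampshire 5 and 2. No treatment is named in the labels, and they give no thickness behind the words thick and thin. Per the series' design text, reads came from 36 single-end cycles on an Illumina HiScan SQ.

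Named reads per library ran from 430712 to 3136842, and the smallest count above 0 was 6 in each library, so a 0 can stand for up to 5 reads. Of the 5 fat markers looked for, miR-148a-3p, miR-143-3p, miR-378 and miR-30a-5p were listed in all 22 libraries and miR-193b-3p was not listed. Among the markers of other cells, the endothelial miR-126-3p reached 67624 CPM (counts scaled to a common library total). The liver miR-122 reached 16832 CPM and was at 0 in 2 libraries, and the liver miR-192 was at 0 in 18. The muscle miR-133a-3p and miR-206 were listed in all 22 libraries, up to 911 and 1236 CPM, and miR-1 was not listed. Of red blood cell markers, miR-451 and miR-486 were listed in all 22, up to 1340 and 435 CPM, and miR-144 was at 0 in 12. The skin and epithelial miR-205 and miR-200b were at 0 in 14 and 19, and miR-203 was not listed. The part of these other cells in the results was not tested. The Large White labels disagree with the authors' own comparison: the deposited log2 fold changes correlated at r = 0.652 over 6796 sequences with a refit on the labels, and at r = 1 when thick replicate 1 and thin replicate 1 were exchanged. Results that rest on Large White are therefore given as labelled, and with those 2 libraries exchanged or left out where that moved them.

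The sequences with the most reads show the pattern that runs through the set, a change at position 8, the last base of the seed. Each leading sequence is printed below with its seed in capitals, and each variant with its changed base in capitals. A code such as A8U gives the base of the leading sequence, its position from the 5′ end and the base of the variant.
miR-148a-3p leading: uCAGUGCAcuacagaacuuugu
miR-148a-3p A8U: ucagugcUcuacagaacuuugu
miR-148a-3p A8C: ucagugcCcuacagaacuuugu
miR-10b leading: uACCCUGUagaaccgaauuugu
miR-10b U8C: uacccugCagaaccgaauuugu
miR-21 leading: uAGCUUAUcagacugauguugac
miR-21 U8C: uagcuuaCcagacugauguugac
miR-143-3p leading: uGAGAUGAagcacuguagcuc
miR-143-3p A8U: ugagaugUagcacuguagcuc
let-7i-5p leading: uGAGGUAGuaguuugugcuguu
let-7i-5p G8A: ugagguaAuaguuugugcuguu
miR-27b-3p leading: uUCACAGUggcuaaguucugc
miR-27b-3p U8C: uucacagCggcuaaguucugc
miR-126-3p leading: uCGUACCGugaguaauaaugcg
miR-126-3p G8A: ucguaccAugaguaauaaugcg

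The set was almost wholly a set of changes at position 8. Of the 61 sequences, 57 were changed there, and they held 16733 of the 16846 reads, or 99.3%. Positions 2 to 7 together held 4 sequences, and none was listed at positions 4, 5 or 6. The 15 sequences with an A-to-G change in the seed were all at position 8 as well.

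The gap was as wide in abundant miRNAs. Among the 20 most abundant miRNAs, 360 single-base changes are possible at positions 2 to 7 and 1 was listed. At position 8 of the same miRNAs, 42 of 60 possible changes were listed, at position 9 it was 42 of 60, at position 10 it was 44 of 60, and at position 1 it was 51 of 60. These counts include A-to-G changes, and between positions 9 and 19 they ran from 34 to 46 of 60. The listed share thus stood at 70% at position 8 and at the neighbouring position 9, and near 0 over the 6 bases before.

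For miR-148a-3p, the most read miRNA in the set with 5822640 leading reads, the limit on an unlisted change can be stated. At most 5 reads behind a 0 allow a share of up to 0.0093% in the library with the fewest leading reads and up to 0.00105% in the one with the most. The listed A8U variant of the same miRNA had shares of 0.0430% to 0.0602%. A change at positions 2 to 7 as frequent as A8U would have been above the smallest listed count in each library. These limits cover counting error only.

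Reads of other lengths and other starts, which the choice of members did not use, showed the same gap. Sequences that began where the leading sequence begins but had another length held 2612 single-base variants of 748 templates, where a template is the most read sequence of its length and start. None of these variants was at positions 2 to 7, and 67 were at position 8, of which 47 were not A to G. At position 9 there were 85, and at position 1 there were 261.

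Reads that began 1 base earlier or later let the position in the read be told from the position in the miRNA. With a start 1 base earlier, 8 variants were at read position 2, which is position 1 of the leading sequence, and 0 lay over its positions 2 to 7. With a start 1 base later, 6 variants were at read position 7, which is position 8 of the leading sequence, and the 2 over its positions 2 to 7 were both the first base of the read. The gap therefore lay over the same bases of the miRNA when the read began elsewhere. Of all 8409 named sequences, 8395 contained bases 2 to 7 of their leading sequence unbroken, and the 14 that did not belonged to 5 miRNAs and held 489 reads. The step that could have removed other sequences is not given in the sources used here, and its part was not tested.

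The 4 members inside positions 2 to 7 came from miRNAs that also had reads with another start. The share of reads with another start was taken for these miRNAs only, so this trait has no background. They are printed with the leading sequence and with the most read sequence of the other start, which has no capitals.
miR-199ab-3p leading: aCAGUAGUcugcacauugguu
miR-199ab-3p G7A: acaguaAucugcacauugguu
miR-199ab-3p, 1 base earlier: uacaguagucugcacauugguu
miR-140-3p leading: aCCACAGGguagaaccacggac
miR-140-3p G7A: accacaAgguagaaccacggac
miR-140-3p, 1 base earlier: uaccacaggguagaaccacgga
miR-142-5p leading: cCCAUAAAguagaaagcacu
miR-142-5p C2A: cAcauaaaguagaaagcacu
miR-142-5p C3A: ccAauaaaguagaaagcacu
miR-142-5p, 2 bases later: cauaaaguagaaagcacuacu

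For miR-199ab-3p, a miRNA of stromal cells, sequences starting 1 base earlier held 25.7% of the reads, and for miR-140-3p, known from cartilage, they held 46.4%. Counted from that earlier start, both G7A changes fall on base 8. For miR-142-5p, a miRNA of blood cells, 9.00% of reads began 2 bases later. Counted from there, C3A is at the first base and C2A lies before it. The seed of these 4 sequences thus depended on which start is taken as the 5′ end.

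The miR-199ab-3p G7A variant held 66 reads in 8 libraries. In Hampshire it had 7, 8, 12 and 6 reads in thick 1, thin 1, thin 2 and thick 5, in Large White 10, 9 and 8 in thin 1, thin 4 and thick 4, and in Pietrain 6 in thin 3. Its share where listed ran from 0.0402% to 0.112%. The leading sequence was itself at 0 in 7 libraries, so the variant's absence there says nothing of its share.

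The miR-142-5p C2A variant had 15 reads beside 374 leading reads in Pietrain thin 2 and 19 beside 407 in Pietrain thin 3, shares of 3.86% and 4.46%. No other member reached so high a share in a library with at least 100 reads of the pair. The leading sequence was at 0 in 15 libraries, among them Pietrain thin 1 and 3 of 4 Pietrain thick libraries. C3A, with 7 reads, and miR-140-3p G7A, with 6, were each listed in a single library.

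At position 8 the changes were far from equal. U to C was the most common, with 22 sequences, followed by G to A with 9, A to U, A to C and G to U with 5 each, U to A and G to C with 4 each, U to G with 2 and C to U with 1. C to A and C to G were not listed. Transitions, in which a purine replaces a purine or a pyrimidine a pyrimidine, made up the most common changes of U, G and C, whereas A, with its transition A8G outside the set, was more often read as U than as C.

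To set the changes beside each other, the reads of each change were taken as a share of these reads plus the leading reads of all miRNAs with that base at position 8. U8C had 0.188% ± 0.0262 (SD, n = 22), with libraries between 0.132% and 0.243%. G8A had 0.0499% ± 0.0105 (SD, n = 22) and A8U had 0.0432% ± 0.00473 (SD, n = 22). The next was C8U at 0.0137% ± 0.0234 (SD, n = 22), which rested on miR-92a alone, and then A8C at 0.0128% ± 0.00307 (SD, n = 22).

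Among the listed changes, the lowest shares belonged to transversions of U and G. U8A had 0.00772% ± 0.00585 (SD, n = 22), G8U 0.00702% ± 0.00505 (SD, n = 22), U8G 0.00454% ± 0.00461 (SD, n = 22) and G8C 0.000724% ± 0.00114 (SD, n = 22). For these 4 changes at least 1 library had no listed read. A8G, the change that was left out of the set, had 0.302% ± 0.0144 (SD, n = 22) over the same miRNAs with A at position 8 and its lowest library, 0.278%, lay above the highest of any other change at position 8.

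The same changes could be compared with those between position 9 and the fourth base from the 3′ end. A to U had 0.0363% ± 0.00335 (SD, n = 22) there and was higher at position 8 in 19 of 22 libraries. A to C had 0.0127% ± 0.00732 (SD, n = 22) there and was higher at position 8 in 16. U to C had 0.227% ± 0.0115 (SD, n = 22) past the seed and was higher at position 8 in 1 library. The shares of these 3 changes at position 8 were thus of the size found past the seed.

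The other changes were mostly lower at position 8. G to A and C to U had 0.656% ± 0.167 (SD, n = 22) and 0.301% ± 0.0486 (SD, n = 22) past the seed and were higher at position 8 in 0 libraries. U to A, at 0.0220% ± 0.00290 (SD, n = 22), and U to G, at 0.0181% ± 0.00535 (SD, n = 22), were also higher there in 0. C to A and C to G were unlisted at position 8. A 0 stands for up to 5 reads, and miRNAs with C there had only 289602 leading reads. C to A and C to G therefore cannot be compared with their values past the seed. The part of unlisted reads in the other changes was not tested. G to C was higher at position 8 in 1 library and G to U in 9. Over all changes other than A to G, and per base that could change, position 8 had 0.0798% ± 0.00907 (SD, n = 22) and the positions past the seed 0.291% ± 0.0379 (SD, n = 22). The difference, -0.211 percentage points, had the same direction in 22 of 22 libraries (permutation test of signs, two-sided, p = 2e-05, the smallest it can give, also after adjustment over 4 comparisons). These pooled values were not matched by base. At position 8, miRNAs with A had 10775282 leading reads and those with C 289602. The part of this mix of bases in the difference was not tested. When the 4 rows past the seed with a share of 5% or more in some library were left out, the positions past the seed came to 0.132% ± 0.00906 (SD, n = 22). The difference was then -0.0526 percentage points, again of the same direction in 22 of 22 libraries. The values given above for single changes past the seed, such as G to A, keep these 4 rows and were not recomputed without them.

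The members also lay below the A-to-G changes. Over the whole seed they held 0.0115% ± 0.00133 per base (SD, n = 22), against 0.0791% ± 0.0117 (SD, n = 22) for A to G per A that could change. At position 8 alone the values were 0.0798% and 0.303% ± 0.0145 (SD, n = 22). Both differences held in 22 of 22 libraries, with the same permutation p of 2e-05 (two-sided, the smallest possible, adjusted over 4 comparisons). The pair at position 8 was added after the data were seen, because the other positions of the seed are nearly empty.

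Whether a U8C variant was listed followed the abundance of its miRNA closely. Of 73 miRNAs with U at position 8, 22 had it, including all 21 with more leading reads than miR-451, which had 13701. Its share ran from 0.0372% in miR-186 to 0.299% in miR-21, with a median of 0.166% over the 22 miRNAs, each pooled over libraries. In miR-186 it was listed in a single library, with 6 reads; the part of unlisted reads in these shares was not tested.

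The same change can be set side by side in related miRNAs, with shares pooled over libraries and no test between them. In the let-7 family, which represses growth genes, G8A held 0.0499% of pooled reads in let-7a, 0.0522% in let-7f-5p, 0.0621% in let-7g and 0.0641% in let-7i-5p. In let-7e, with 58471 leading reads and 14 reads of G8A in 2 libraries, it held 0.0239%. U8C held 0.175% in miR-10b and 0.137% in miR-10a-5p, which differ at 1 base, and 0.250% and 0.222% in miR-23b and miR-23a. A8U held 0.0481% in miR-99a and 0.0422% in miR-100. U8C held 0.208% in miR-27b-3p and 0.122% in miR-27a, and miR-27a had 57202 leading reads against 348004. U8C was listed in 22 libraries for miR-27b-3p and in 9 for miR-27a, in 22 for miR-10b and in 13 for miR-10a-5p. It was listed in 15 for miR-23b and in 14 for miR-23a, and A8U in 20 for miR-99a and in 11 for miR-100. A count of 0 can hide unlisted reads. Their part in these differences, those of the let-7 family included, was not tested.

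Some abundant miRNAs had no listed change at position 8. let-7c, with 352916 leading reads and the same G at position 8 as let-7a, had no listed change there, nor had miR-30a-5p with 233836 or miR-381-3p with 143149. Past the seed they had 4 of 33, 2 of 36 and 0 of 33 possible changes listed, against 29 of 33 for miR-126-3p with 540150 leading reads and 19 of 33 for miR-92a with 128551. The shortage in these 3 miRNAs was thus not limited to the seed. These miRNAs were singled out after their values were seen.

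miR-26a was low in another way. It had 1488379 leading reads, the second most of all miRNAs, and all 33 possible changes past the seed, yet its A8U held 27 reads, a share of 0.00181%, and its A8C 9 reads, a share of 0.000605%. The 4 other miRNAs with A8U had between 0.0422% and 0.0800%. Its sequence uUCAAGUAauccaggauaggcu has an A both at position 8 and at position 9. miR-143-3p has A at both of these positions as well, and its A8U held 0.0800%. The part of the neighbouring base was not tested. miR-26a too was singled out after its values were seen.

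No changed seed equalled the seed of another listed leading sequence, in 0 of the 61 members. In 62 of the 1342 pairs of member and library the leading sequence was at 0, and the member was listed in none of these 62. The pairs at 0 came from 11 members, among them miR-21 U8C in Large White thick 3 and miR-199ab-3p U8C in 7 libraries. A leading count of 0 stands for at most 5 reads, and no member reached a share of 5%. A member could thus hardly reach the smallest listed count of 6 there, and these pairs tell nothing of its share.

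The 10 members with the most reads held 70.5% of the reads of the set. miR-148a-3p, a miRNA linked to fat cell formation, gave the largest with 2977 reads of A8U, and its A8C variant had 1121. miR-10b U8C had 2270 reads, miR-21 U8C 1203 and miR-143-3p A8U 932. let-7i-5p G8A had 821, miR-27b-3p U8C 724, miR-126-3p G8A 624, let-7a G8A 608 and miR-99a A8U 604. Of all members, 6 were listed in 22 of 22 libraries and 8 in a single one.

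The share of miR-148a-3p A8U varied little. It was 0.0465%, 0.0436%, 0.0542% and 0.0499% in Pietrain thick and 0.0550%, 0.0430% and 0.0432% in Pietrain thin. In Large White thick it was 0.0502%, 0.0588%, 0.0602% and 0.0544%, and in thin 0.0504%, 0.0512%, 0.0508% and 0.0538%. In Hampshire thick it was 0.0473%, 0.0592%, 0.0501%, 0.0534% and 0.0528%, and in thin 0.0466% and 0.0554%. The breeds overlap, and 4 of the 7 Pietrain libraries lie below the lowest Hampshire value of 0.0466%.

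miR-148a-3p A8C varied more and was highest in Pietrain thin fat. It was 0.0257%, 0.0322% and 0.0273% there, and 0.0203%, 0.0182%, 0.0218% and 0.0202% in Pietrain thick, so these groups did not overlap. In Large White it was 0.0167%, 0.0163%, 0.0169% and 0.0172% in thick and 0.0188%, 0.0252%, 0.0184% and 0.0200% in thin, again without overlap, but with thick 1 and thin 1 exchanged the groups overlap. In Hampshire it was 0.0144%, 0.0194%, 0.0173%, 0.0183% and 0.0146% in thick and 0.0185% and 0.0147% in thin, which overlap. Each of these shares rests on 9 to 93 reads of the variant. How many of all variants did not overlap between these small groups was not counted, so the lack of overlap has no background.

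miR-10b U8C, a change in a miRNA of the Hox gene clusters, ranged from 0.146% to 0.186% in Pietrain with a median of 0.171%. In Large White it ranged from 0.162% to 0.226% with a median of 0.186%, and in Hampshire from 0.147% to 0.187% with a median of 0.169%. The 3 ranges overlap widely. miR-21 U8C, in a miRNA known from fibrosis and growth, had the highest share of the 10, at 0.297% ± 0.0364 (SD, n = 21), with Large White thick 3 left out because its leading sequence is at 0.

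The other abundant members also overlapped between breeds. miR-143-3p A8U, from a miRNA of smooth muscle and fat, had 0.0697% ± 0.0115 (SD, n = 7) in Pietrain. It had 0.0851% ± 0.0151 (SD, n = 8) in Large White, and Hampshire stood at 0.0809% ± 0.0110 (SD, n = 7). miR-126-3p G8A, from the endothelial miRNA, had 0.122% ± 0.0163 (SD, n = 7), 0.119% ± 0.0139 (SD, n = 8) and 0.108% ± 0.0132 (SD, n = 7) in the same order. miR-27b-3p U8C had 0.219% ± 0.0348 (SD, n = 7), 0.194% ± 0.0401 (SD, n = 8) and 0.191% ± 0.0577 (SD, n = 7). In all 3 the ranges of the breeds overlap.

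let-7i-5p G8A, let-7a G8A and miR-99a A8U were unlisted in 1, 2 and 2 libraries. Their shares were 0.0620% ± 0.0175, 0.0473% ± 0.0193 and 0.0449% ± 0.0172 (SD, n = 22 each), with the unlisted libraries at 0. The leading reads of let-7a were 10869 in the library where they were fewest, and there 5 unseen reads would be a share of 0.0460%. Its zeros therefore cannot be told apart from its usual share.

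Differences between groups in the ratio of a variant to its leading sequence were tested with edgeR's quasi-likelihood test over all single-base variants with a mean count of at least 30 whose leading sequence was above 0 in every library. Of the members, 6 of 61 could be tested: miR-148a-3p A8U and A8C, miR-10b U8C, miR-143-3p A8U, let-7i-5p G8A and miR-27b-3p U8C. Another 54 had a lower mean count, and miR-21 U8C missed a leading sequence in 1 library. P-values measure the spread between these animals, and an unrecorded difference in preparation between breeds cannot be told apart from breed.

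Pietrain differed from Large White in 2 of the 6 members, both of miR-148a-3p and in opposite directions. Of all 343 variants tested, 21.9% were called in this comparison, so 2 of 6 is near the background. A8C was higher in Pietrain by 0.36 ± 0.095 (log2 ratio ± SE, edgeR adjusted p = 0.0079), and A8U was lower, at -0.20 ± 0.069 (edgeR adjusted p = 0.042). A8U was called in 6 of 21 alternatives. Its call was lost with limma (adjusted p = 0.12), with DESeq2 (adjusted p = 0.078), where the level of the variant replaced its ratio (adjusted p = 0.44), at a mean count of 10, with the 2 Large White libraries exchanged, and in 10 of the 15 fits that left out a library of these breeds (Pietrain thick 1 and 2, Pietrain thin 2 and 3, Large White thick 2 and 3, and each Large White thin library). A8C lost its call only where the level of the variant replaced its ratio (adjusted p = 0.59), and it was not among the variants tested at a mean count of 100. miR-10b U8C had -0.17 ± 0.076 (edgeR adjusted p = 0.12).

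Hampshire differed from Pietrain in miR-148a-3p A8C alone of the 6 members, with 33.2% of the 343 variants called. A8C was lower in Hampshire, at -0.53 ± 0.10 (log2 ratio ± SE, edgeR adjusted p = 2.58e-04), and remained called without each library in turn. When the level of the variant replaced its ratio, the value turned to 0.20 and was not called (edgeR adjusted p = 0.47). The medians of A8C were 0.0173% in Hampshire, 0.0178% in Large White and 0.0218% in Pietrain. Pietrain libraries are in both called comparisons of A8C, so the 2 are not independent.

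Hampshire differed from Large White in 0 of the 6 members by edgeR, DESeq2 and limma, with 8.16% of all variants called by edgeR. DESeq2 gave no adjusted p here to let-7i-5p G8A, miR-143-3p A8U and miR-27b-3p U8C, so it decided nothing on them. At an unadjusted p under 0.05 it also differed in 0 members, where 78 of the 343 variants passed. The nearest were miR-10b U8C, at -0.17 ± 0.087 (edgeR adjusted p = 0.26), and, in the other direction, miR-27b-3p U8C at 0.068 ± 0.17 (edgeR adjusted p = 0.91). When the level of the variant, scaled by TMM, was tested in place of its ratio, miR-148a-3p A8U was higher in Hampshire than in Large White by 0.56 (edgeR adjusted p = 0.019) and than in Pietrain by 0.86 (edgeR adjusted p = 9.5e-04). Its ratio differed by -0.068 (edgeR adjusted p = 0.66) and 0.13 (edgeR adjusted p = 0.20) in these comparisons. The level of A8U thus moved and its ratio to the leading sequence was not called.

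Between fat classes, 1 member was called, in Pietrain. miR-148a-3p A8C was lower in thick than in thin fat there, at -0.53 ± 0.14 (log2 ratio ± SE, edgeR adjusted p = 0.0072), with 12.0% of the 343 variants called in that comparison. The call was lost without Pietrain thick 2, without Pietrain thin 2, with limma (adjusted p = 0.071) and where the level replaced the ratio (adjusted p = 0.55). In Large White 0 of 6 members and 0% of variants were called, and in Hampshire 0 of 6 members and 0.583% of variants. DESeq2 and limma called 0 members there too, as did an unadjusted p under 0.05 with edgeR, which 12 of the 343 variants passed in each of these 2 breeds.

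A8C had -0.26 ± 0.13 (edgeR adjusted p = 0.995) between fat classes of Large White, where the nearest in the other direction was miR-148a-3p A8U at 0.13 ± 0.090 (edgeR adjusted p = 0.995). In Hampshire A8C had 0.025 ± 0.16 (edgeR adjusted p = 0.996), and the nearest were miR-10b U8C at -0.20 ± 0.14 (edgeR adjusted p = 0.951) and let-7i-5p G8A at 0.16 ± 0.33 (edgeR adjusted p = 0.996). The test of whether the fat difference itself varied between breeds called 0 of the 6 members in each of the 3 pairs of breeds by edgeR, against 5.83%, 0% and 3.79% of all variants. The nearest was A8C in Hampshire against Pietrain, where the fat differences were 0.56 ± 0.21 apart (edgeR adjusted p = 0.16). At an unadjusted p under 0.05 that pair had 2 members, A8C and miR-27b-3p U8C, and the other pairs had none. The share of all variants at that cut was not counted, so these numbers of members have no background. A fat difference of A8C particular to Pietrain was therefore not shown.

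The authors' deposited tables compare fat classes within each breed on counts of each sequence and give adjusted p-values to 32, 51 and 44 of the members in Pietrain, Large White and Hampshire. In all 3 of the authors' deposited tables no member was called, 0 of these, where 1.89%, 0% and 0.0187% of all sequences were. The smallest p of a member in the authors' deposited table for Pietrain belonged to miR-142-5p C2A, with a log2 fold change of 5.93 for thin minus thick (adjusted p = 0.19, DESeq2). In the authors' deposited tables for Large White and Hampshire it belonged to miR-27b-3p U8G and miR-143-3p A8U, with adjusted p of 1.00 and 0.97. These values are levels of a sequence, not ratios.

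Taking all members as 1 quantity, the seed share of a library is the member reads as a percentage of member plus leading reads of all miRNAs. It ran from 0.0628% in Large White thick 1, with 176 member reads (95% Wilson interval 0.0542% to 0.0728%), to 0.0961% in Large White thin 2, with 764 (0.0895% to 0.103%). These intervals cover counting error only. Large White thick 1 had 557807 named reads, fewer than any library but Hampshire thick 2, which had 430712 and a share of 0.0641%.

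The number of listed members rose with depth, from 9 in Hampshire thick 2 to 43 in Pietrain thick 2, the deepest library. Over 22 libraries the number and the named reads had r = 0.979 and rho = 0.980 (permutation p = 1e-05 for both, the smallest possible, adjusted p = 9e-05 over 9 relations), and r = 0.978 without the 2 libraries farthest from the median depth. The seed share had r = 0.645 (permutation p = 0.00119, adjusted 0.00214) and rho = 0.693 (permutation p = 0.00047, adjusted 0.00141) with depth, and r = 0.643 without those 2. Within breeds the r of the seed share was 0.536 in Hampshire, 0.627 in Large White and 0.566 in Pietrain, none past the threshold by exact or permutation test, and -0.377 in Large White without its 2 farthest libraries.

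The relation went when each library was held to the same floor. With counts taken as 0 where they fell below the floor of the shallowest library scaled to the depth, the seed share and depth had r = -0.0350 (permutation p = 0.879) and rho = -0.0627 (permutation p = 0.78). The seed share as deposited thus rose with depth over the 22 libraries, and with the common floor no relation was seen. Depth cannot be told apart from other differences between libraries in the share as deposited.

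In Pietrain the seed share was 0.0827% ± 0.0064 (SD, n = 7). Large White libraries averaged 0.0843% ± 0.0102 (SD, n = 8) and Hampshire libraries 0.0732% ± 0.00724 (SD, n = 7). The Hampshire mean was the lowest, and Hampshire also had the lowest median depth, 1223577 named reads against 2070610 in Large White and 1610826 in Pietrain. The share pools all miRNAs, so their mix in a library enters it, and the parts of this mix and of depth were not tested. Member reads were 0.0704% of the leading reads in miR-148a-3p and 0.330% in miR-21. Hampshire minus Large White was -0.0112 percentage points (exact two-sided permutation p = 0.0348, adjusted over 6 comparisons 0.104) and Hampshire minus Pietrain -0.00948 (exact p = 0.0245, adjusted 0.104), neither past the threshold. Without Large White thick 1 the first difference was -0.0142 points and passed (exact permutation, adjusted p = 0.0105). With the common floor the means were 0.0600%, 0.0658% and 0.0608% in Hampshire, Large White and Pietrain, with exact p of 0.112 and 0.793 for these pairs. Pietrain minus Large White was -0.00168 points (exact p = 0.723, adjusted 0.8).

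Between fat classes the mean seed share as deposited was lower in thick fat in each breed, without passing the test, and in Pietrain the direction did not hold. Thick fat of Large White had 0.0782% ± 0.0105 (SD, n = 4), against 0.0905% ± 0.00529 (SD, n = 4) in its thin fat (exact permutation p = 0.0857, adjusted 0.143). With the disputed libraries exchanged, thick minus thin was -0.00129 points (exact p = 0.914), and without Large White thick 1 it was -0.00724 in place of -0.0124. In Hampshire the 5 thick libraries lay between 0.0641% and 0.0746% and the 2 thin ones at 0.0821% and 0.0823%, without overlap (exact p = 0.0952, the smallest that 5 against 2 can give, adjusted 0.143). In Pietrain the values were 0.0819% ± 0.00582 (SD, n = 4) and 0.0837% ± 0.00832 (SD, n = 3), with an exact p of 0.8, where 4 against 3 could reach 0.0571. Thick minus thin in Pietrain was -0.00182 points, and it turned to 0.00138 with the common floor, to 0.000586 without thick 4 and to 0.00194 without thin 3. The thick libraries of Hampshire had a median of 1010223 named reads and the thin ones 1450681, and with the common floor the exact p in Hampshire was 0.286.

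The sequences of other lengths, from the same libraries and miRNAs but outside the members, also held changes at position 8. Pooled over templates with the usual start, U8C held 0.135% of 1473478 template reads, A8U 0.0396%, G8A 0.0302% and A8C 0.00304%. The leading lengths, pooled in the same way, had 0.196%, 0.0433%, 0.0522% and 0.0130%. The order of U8C above the others was kept, while A8U and G8A changed places. A8G held 0.270% in the other lengths and 0.305% in the leading ones. The part of the smallest listed count in these differences was not tested.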

How the data were processed

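The libraries hold small RNA of subcutaneous fat, 1 for each of 22 pigs. The authors deposited, per breed, raw read counts per sequence (8489 rows, 80 without a miRNA name, which held 0.0480% of reads and were left out) and fat comparisons with mean signal, log2 fold change, score and p-value, per the file headers. Tools named in the submitters' processing notes are DESeq2, FastQC and bcl2fastq, and the build is Sscrofa10.2; the aligner and the handling of mismatches are not given in the sources used here. Libraries were made by adapter ligation, reverse transcription and PCR, per the labels' protocols, so that reads, which carry no molecular identifiers, can be copies of 1 molecule. Coordinates were not used, since the reference is of a different build.

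Sequences are those of the deposited count tables, 17 to 25 nt long. Groups came from the labels; replicates are different libraries in each group. Shares were computed per library in Python 3.11.15 and compared by exact permutation. Ratios were tested with edgeR 4.0.16 (limma 3.58.1, DESeq2 1.42.0 as alternatives, R 4.3.3), the log of the leading count as offset, 6 group means, Benjamini-Hochberg adjustment and a threshold of 0.05. Named members are the 10 with the most reads, those with a share of 5% or more in a library with 100 reads (there were 0), the called or nearest members of each comparison, and the highest and lowest changes by position. Members and lists were chosen with earlier results of these data known. Alternatives were TMM scaling, other filters on mean count (10 and 100), other tools, a floor matched to depth, the exchange of 2 Large White labels, and each library left out.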

Additional observations from a re-analysis of the deposited data

How the results depend on the processing

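Of the recomputed counts of called members, 77 of 101 were within 1.5 times the reported count, with 0 against 0 taken as equal. The reported count was 0 for Hampshire against Large White and for the fat classes of Large White and of Hampshire. Of the differences in seed share, 88 of 92 kept their direction and side of the threshold, as did 8 of 8 comparisons with other changes. An equal count can hold another member: with TMM scaling Hampshire against Pietrain again had 1, but it was miR-148a-3p A8U in place of A8C, whose value turned from -0.53 to 0.20 (edgeR adjusted p = 0.47). Called members in Pietrain against Large White were 2 as reported, 0 with TMM scaling of the variant's level, and 1 each with DESeq2, limma, a mean count of 10, a mean count of 100, and the 2 Large White libraries exchanged. Leaving out each library gave 1 to 2 there, 0 to 1 for fat classes in Pietrain, and no change in the other 4 comparisons. Hampshire against Large White had 1 with TMM scaling. Hampshire against Pietrain had 0 at a mean count of 100, where miR-148a-3p A8C was not tested. Fat classes in Pietrain had 0 with TMM scaling, limma and a mean count of 100. TMM scaling tests the level in place of the ratio, and the cause of the other changes was not tested.

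The difference in seed share between fat classes of Pietrain turned from -0.00182 to 0.00138 percentage points with the depth-matched floor, and ranged from -0.00629 to 0.00194 over the libraries left out; Pietrain thick 4 and thin 3 each turned it. Hampshire against Large White ranged from -0.0142 to -0.00948, with the first of these past the threshold. Leaving out a Hampshire thin library leaves 1, which is assumed to vary like the other groups in the ratio test. Numbers in the sample titles never recur within a breed, but 5 recur between Hampshire and Pietrain and 2 between Hampshire and Large White, and the labels tie them to no shared source. With these numbers as a replicate block, the 10 Hampshire and Pietrain libraries gave 0 called members, as they did without the block (A8C -0.30 and -0.29, edgeR adjusted p = 0.13 in both), and 78 against 76 called variants. Deviations of same-numbered libraries correlated at -0.0563 to 0.235, above 0.1 in 3 of 5 pairs. The 2 pairs with Large White were not fitted, since breed, fat class and number leave no residual degrees of freedom. Depth limits the set to changes above 5 reads, and 55 of 61 members were too few or incomplete for the ratio test. The comparisons at position 8 alone, those without Large White thick 1 and thin 1, and the block were added after seeing the data; the first 2 changed no call.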
